A study of Rattus norvegicus with 3 samples.

Results

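The genes described here handle iron and haem. They were chosen by name and are Fth1 and Ftl1 (the heavy and light chains of ferritin), Tfrc (the transferrin receptor), Tf (transferrin), Slc40a1 (ferroportin), Slc11a1 (Nramp1), Hmox1 (haem oxygenase 1), Cp (ceruloplasmin) and Blvrb (biliverdin reductase B), 9 genes of the 25199 in the feature tables. Of these 9, 8 had at least 1 unique molecular identifier (UMI, the count of captured RNA molecules) and Slc40a1 had none. Cells came from the spinal cord of wild type rats of 6 to 8 weeks, from 5 mm of cord around the injury. The injury site had been injected with MPG-HD, with G-HD or with PBS, the control injection, and the labels give no composition for either hydrogel preparation. Each treatment was 1 single-cell library, and the labels give 5 animals a condition without saying how they were pooled. Red cells were lysed during dissociation. With 1 library each, no difference between treatments has a replicate check, and all intervals below are exact 95% intervals for counting error only.

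Iron reaches most cells bound to transferrin, which the transferrin receptor takes up, and iron that is not used is stored inside ferritin cages. The heavy chain oxidises the incoming iron and the light chain favours its deposition in the core. Macrophages that have eaten red cells and cell debris also receive iron as haem. Haem oxygenase 1 opens the haem ring and frees the iron, and a biliverdin reductase reduces the biliverdin that results. The level of Blvrb RNA alone does not show that step. Nramp1 moves iron out of the phagosome. Ferroportin, helped by the ferroxidase ceruloplasmin on neighbouring or the same cells, lets iron leave the cell. In the central nervous system, oligodendrocytes are known for high iron and for making transferrin. Bleeding into the cord makes this pathway of interest after injury.

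After filtering, 2087 MPG-HD cells, 2341 G-HD cells and 1373 PBS cells remained, with medians of 10425, 9257 and 10296 UMIs per cell in the same order. Barcodes shared between libraries numbered 5 to 8 per pair. Cells fell into 24 clusters, made without the iron genes, and clusters were named from marker genes. Of the named classes, 6 had at least 50 cells in each library, of which macrophage-like cells (452 in MPG-HD, 707 in G-HD and 343 in PBS), microglia-like cells (382, 290 and 264) and oligodendrocyte-like cells (397, 169 and 226) were the most abundant. Levels are given as CPM, the gene's UMIs scaled to 1000000 UMIs of the class in that library. The marker lists lack Pecam1, Ccr2, Foxj1 and some other defining genes under those symbols, so several names rest on the remaining markers.

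Among the named classes, ferritin RNA stood highest in macrophage-like cells. Both chains together made up 7.87% of all their UMIs in MPG-HD, 7.81% in G-HD and 6.20% in PBS. Fth1 was at 32927 CPM in MPG-HD, 33307 CPM in G-HD and 25838 CPM in PBS in this class. Ftl1 was at 45761 CPM in MPG-HD, 44802 CPM in G-HD and 36137 CPM in PBS. Both chains were thus higher with either hydrogel than with PBS, by less than 1.5-fold: Fth1 had a ratio of 1.27 (1.27 to 1.28) for MPG-HD over PBS and 1.29 (1.28 to 1.30) for G-HD over PBS. For Ftl1 the ratios were 1.27 (1.26 to 1.27) and 1.24 (1.23 to 1.25). Over the whole class MPG-HD and G-HD lay within a few percent of each other, with ratios of 0.989 for Fth1 and 1.02 for Ftl1. These intervals are narrow because the UMIs are many, and they leave out differences between animals and preparations, which 1 library per treatment cannot show.

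The class holds 3 clusters that differ more from each other than the libraries do. Cluster 1, led by Mmp12 and Fabp4, had Fth1 at 43465 CPM in MPG-HD, 38373 CPM in G-HD and 32590 CPM in PBS. Cluster 3, led by Ms4a4e, Cd8a and C1q genes, had 23021, 24912 and 20503 CPM in the same order. Cluster 6, led by class II genes such as RT1-Db1 and Cd74, had 14179, 15318 and 12213 CPM. Fth1 in MPG-HD thus lay above G-HD in cluster 1 and under it in clusters 3 and 6. In each of the 3 clusters both hydrogel libraries lay above PBS for both chains, and Ftl1 ratios over PBS ran between 1.13 and 1.38. Cluster 1 held 404 of the 707 macrophage-like cells in G-HD, 190 of 452 in MPG-HD and 145 of 343 in PBS. The cells of cluster 1 were also the deepest, with medians of 20647, 19781 and 19976 UMIs in MPG-HD, G-HD and PBS.

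Microglia-like cells carried less ferritin than macrophage-like cells in every library, with both chains at 3.29% of UMIs in MPG-HD, 3.30% in G-HD and 2.87% in PBS. Oligodendrocyte-like cells, the third of the most abundant classes, held 2.30%, 2.16% and 2.63%. Smaller classes reached similar shares, at 3.20% in MPG-HD, 1.09% in G-HD and 2.15% in PBS in neutrophil-like cells and 2.21%, 1.38% and 2.89% in monocyte-like cells. The neutrophil-like class joins unlike clusters, cluster 14 at 3.82%, 3.29% and 4.16% and cluster 18 at 0.217%, 0.475% and 0.303%. Cluster 18 held 2 of 31 neutrophil-like cells in MPG-HD, 60 of 133 in G-HD and 5 of 26 in PBS, so the class values vary with this mix. T-like cells, which have no known role in iron storage, held 0.418%, 0.389% and 0.503%. For Fth1 the microglia-like range (13355 to 15341 CPM over the 3 libraries), the oligodendrocyte-like range (13109 to 17836 CPM) and the neutrophil-like range (7251 to 22419 CPM) overlapped, whereas the macrophage-like range overlapped none of the others. For Ftl1 the microglia-like range (15369 to 18329 CPM) lay apart both from the macrophage-like range above it and from the classes under it. The rat genome in RefSeq (GRCr8) lists 6 further copies of Fth1, 5 of them pseudogenes, and 21 of Ftl1, 15 of them pseudogenes. How the authors' counting dealt with reads shared between such copies is not stated, so ferritin levels are uncertain to that extent.

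**Figure D1:**
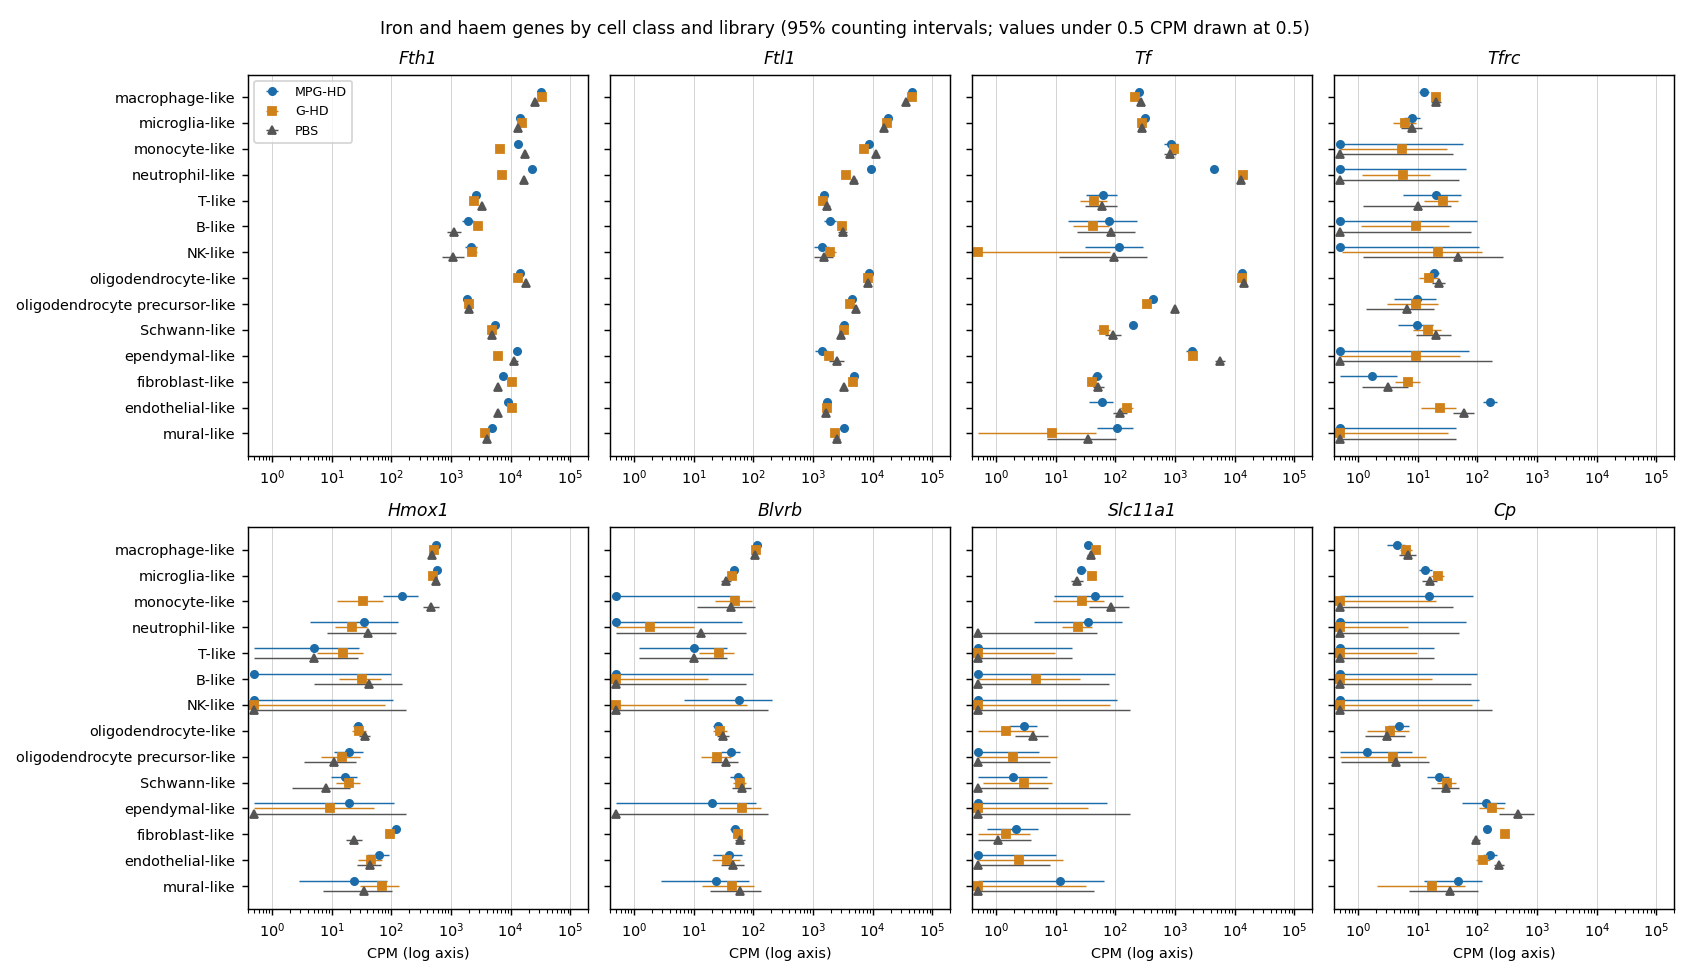
Level of 8 iron and haem genes (CPM, log axis) in 14 cell classes, with circles for MPG-HD, squares for G-HD and triangles for PBS and bars for 95% counting intervals. Ferritin peaks in macrophage-like cells, Hmox1 in macrophage-like and microglia-like cells, Tf peaks in oligodendrocyte-like and neutrophil-like cells, and the library symbols mostly lie closer together than the classes do.

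The balance of the ferritin chains differed between cell classes. The comparison is among the 8 named classes of at least 30 cells in each library, since those of the smaller classes varied more between libraries (0.638, 1.07 and 0.641 Ftl1 UMIs per Fth1 UMI in monocyte-like cells in MPG-HD, G-HD and PBS). Because it is a ratio of the same genes, it can be compared between classes although UMI counts of different genes cannot be read as relative amounts. Macrophage-like cells had 1.39 Ftl1 UMIs per Fth1 UMI in MPG-HD, 1.35 in G-HD and 1.399 in PBS. Oligodendrocyte precursor-like cells had the most light chain among them, at 2.37 in MPG-HD, 2.13 in G-HD and 2.63 in PBS. Endothelial-like cells were at 0.191, 0.159 and 0.269, the heavy chain end of that range.

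Within the oligodendrocyte-like class the balance turned round between clusters. Cluster 8, led by Masp1, Mal, Gpd1 and the myelin gene Opalin, had 2.22 Ftl1 UMIs per Fth1 UMI in MPG-HD, 2.38 in G-HD and 2.03 in PBS, close to the precursor-like cells. Cluster 4, led by Klk6, Hapln2 and S100b, had 0.370, 0.388 and 0.352. The difference lay in the heavy chain: Fth1 was at 20266 CPM in MPG-HD, 18244 CPM in G-HD and 22635 CPM in PBS in cluster 4, against 4361, 3987 and 4438 CPM in cluster 8. Ftl1 differed less, at 7496, 7071 and 7977 CPM in cluster 4 and 9696, 9484 and 9027 CPM in cluster 8. Cluster 4 held 168 of the 397 oligodendrocyte-like cells in MPG-HD, 71 of 169 in G-HD and 107 of 226 in PBS. All 3 libraries showed the same order, and median depth was alike (12351 to 12676 UMIs per cell in cluster 4 and 14018 to 14972 in cluster 8).

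Cluster 13, also oligodendrocyte-like but with medians of only 1060.5 UMIs per cell in MPG-HD, 930.5 in G-HD and 954.5 in PBS, had Fth1 at 73023, 46127 and 83200 CPM. This was above every macrophage-like cluster in each library. Both chains made up 8.93%, 6.32% and 9.68% of its UMIs, more than in the macrophage-like class in MPG-HD and PBS but less in G-HD. Macrophage markers summed to 276 CPM in cluster 13 in MPG-HD, 915 CPM in G-HD and 468 CPM in PBS. Mbp led the cluster, and all 10 oligodendrocyte markers were found in each library. Whether its low depth bears on the Fth1 share was not tested. Over the whole oligodendrocyte-like class, Fth1 was lower with the hydrogels, with ratios over PBS of 0.801 (0.792 to 0.811) for MPG-HD and 0.735 (0.724 to 0.746) for G-HD, while Ftl1 ratios were 1.03 (1.01 to 1.05) and 0.997 (0.978 to 1.02). The Fth1 ratio depended on weighting. For MPG-HD it ran from 0.651 with every cell weighing the same to 0.886 with every cluster weighing the same. For G-HD it ran from 0.501 to 0.797 under the other settings. The part of the class makeup in these ratios was not tested.

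**Figure D2:**
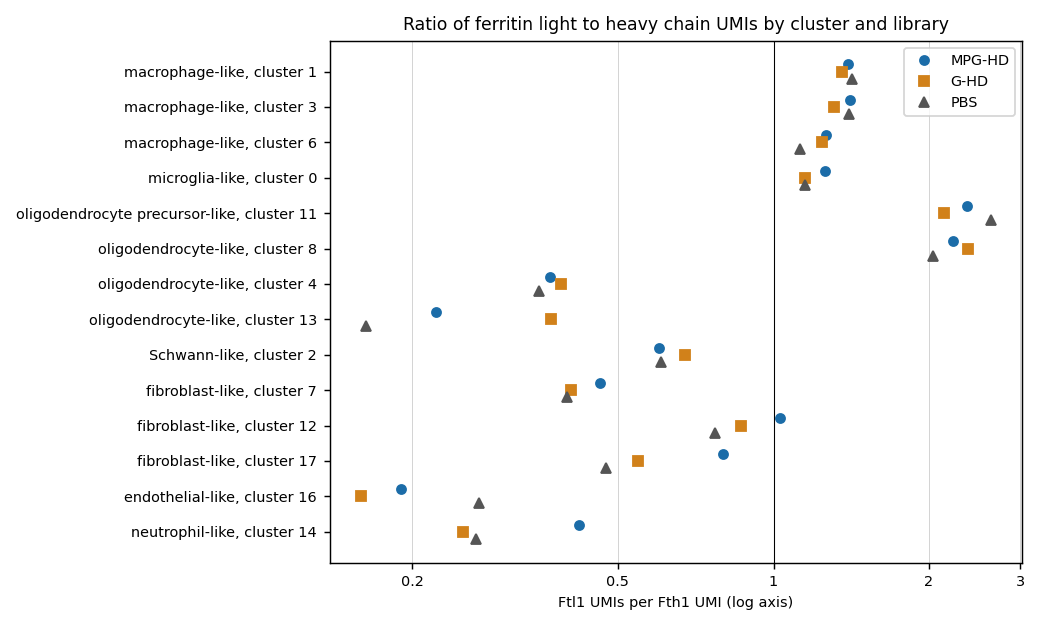
Ftl1 UMIs per Fth1 UMI (log axis) in 14 clusters of at least 10 cells per library, with circles for MPG-HD, squares for G-HD and triangles for PBS. Macrophage-like, microglia-like and oligodendrocyte precursor-like clusters lie right of 1, and the oligodendrocyte-like clusters 8 (about 2) and 4 (under 0.4) lie on opposite sides of it in all libraries.

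Most transferrin RNA lay in oligodendrocyte-like cells, and 1 cluster of neutrophil-like cells had similar levels. Oligodendrocyte-like cells had Tf at 13383 CPM in MPG-HD, 13402 CPM in G-HD and 14434 CPM in PBS, and they held 93.4%, 68.9% and 89.7% of all Tf UMIs of kept cells. The ratios over PBS were 0.927 (0.916 to 0.939) for MPG-HD and 0.928 (0.914 to 0.943) for G-HD. With every cluster given the same weight they were 1.005 and 1.006, so no direction was drawn for Tf in this class. Cluster 4 had 18547, 18718 and 19031 CPM and cluster 8 had 8022, 7239 and 6913 CPM, in the order MPG-HD, G-HD and PBS. Between clusters 4 and 8, the one with more Fth1 thus also had more Tf. This comparison leaves out cluster 13, which had the most Fth1 of the class.

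Neutrophil-like cells were the other class with high Tf, and it came from cluster 18, which is led by granule genes such as Camp, Ngp and Defa5. This cluster held 60 cells in G-HD, 2 in MPG-HD and 5 in PBS, and Tf there was at 18165 CPM in MPG-HD, 16972 CPM in G-HD and 23175 CPM in PBS. In G-HD all 60 cells had Tf, from 2 to 346 UMIs with a median of 114.5, and in PBS the 5 cells ran from 9 to 280 UMIs. The other neutrophil-like cluster, 14, had 1713 CPM in MPG-HD, 2585 CPM in G-HD and 1714 CPM in PBS, with medians of 1 to 3 UMIs per cell. Oligodendrocyte RNA was scarce in cluster 18: the 10 oligodendrocyte markers summed to 516 CPM in MPG-HD, 131 CPM in G-HD and 674 CPM in PBS, compared with 53168, 58142 and 55523 CPM in cluster 4. Neutrophil markers summed to 505728, 463886 and 527167 CPM, and macrophage markers to 20952, 18994 and 15709 CPM from 2, 7 and 3 genes.

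Lactotransferrin (Ltf), the close relative of Tf that neutrophils store in the same granules as Camp, was nearly missing from the data. It had 0 UMIs in cluster 18 in each library and 3 UMIs in all G-HD barcodes, with 0 in MPG-HD and 0 in PBS. Whether the counts listed under Tf in these neutrophils include reads of Ltf was not tested. Because cluster 18 was so unequally spread, neutrophil-like cells supplied 19.1% of Tf UMIs in G-HD.

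**Figure D3:**
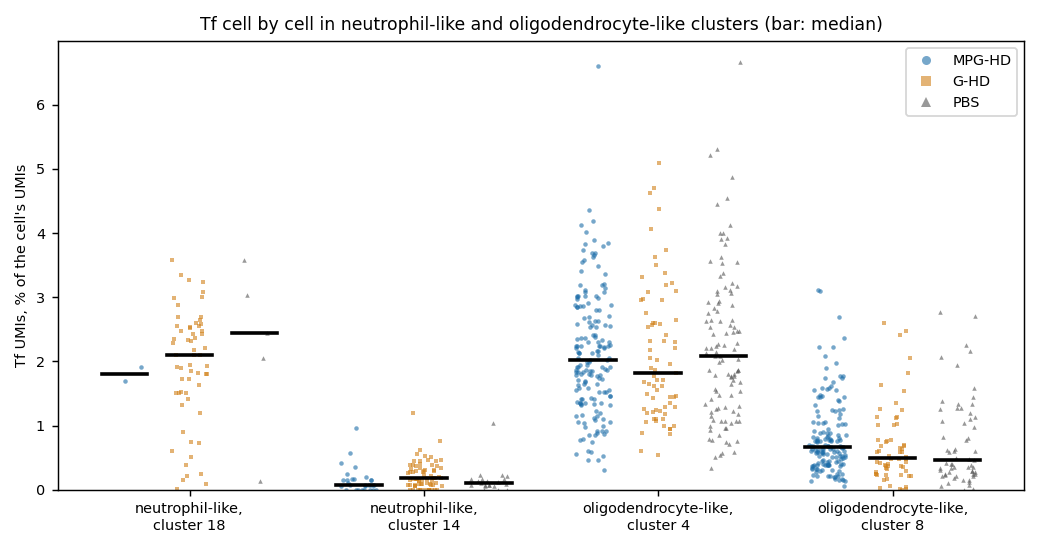
Tf as a percentage of the UMIs of each cell in 2 neutrophil-like and 2 oligodendrocyte-like clusters, with circles for MPG-HD, squares for G-HD and triangles for PBS and bars for medians. The 60 G-HD cells of neutrophil-like cluster 18 reach the range of oligodendrocyte-like cluster 4, while cluster 14 lies near 0.

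Ependymal-like cells came next, at 1897 CPM in MPG-HD, 2001 CPM in G-HD and 5653 CPM in PBS from 95, 215 and 117 UMIs, and lower Tf levels appeared in nearly every other class. Monocyte-like cells had 819 to 957 CPM over the libraries. Microglia-like cells had 319, 283 and 281 CPM and macrophage-like cells 254, 211 and 268 CPM in MPG-HD, G-HD and PBS, and T-like cells, which should lack Tf, had 61.4, 44.5 and 60.5 CPM. After thinning each cell to 1000 UMIs, 28.3% of microglia-like cells in MPG-HD (23.9 to 33.2), 23.9% in G-HD (19.1 to 29.2) and 25.5% in PBS (20.3 to 31.2) had a Tf UMI, against 11.3% (4.27 to 23.0), 2.88% (0.60 to 8.20) and 4.17% (0.51 to 14.3) of T-like cells. Without thinning the shares were 94.8%, 89.7% and 91.3% of microglia-like cells and 20.8%, 15.2% and 18% of T-like cells. Median depths before thinning were 12393, 11645.5 and 11454 UMIs in microglia-like and 3470, 3223 and 3403 UMIs in T-like cells. In Schwann-like cells Tf was at 196 CPM in MPG-HD, 64.6 CPM in G-HD and 91.6 CPM in PBS, in 82 of 207, 52 of 202 and 21 of 95 cells. The MPG-HD over PBS ratio of 2.14 stayed between 2.08 and 3.40 under the other settings, and 41 of the 200 MPG-HD UMIs lay in 1 cell, as did 19 of the 46 PBS UMIs. In oligodendrocyte precursor-like cells it was at 433, 341 and 998 CPM, with 196 of the 461 PBS UMIs in 1 cell.

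The transferrin receptor was scarce, with 335 UMIs in the whole MPG-HD library, 421 in G-HD and 262 in PBS. By its median over the libraries it stood highest in endothelial-like cells, although their range overlapped those of the next classes. These are the cells that carry transferrin-bound iron across the blood vessel wall of the nervous system. Tfrc was at 162 CPM there in MPG-HD (123 to 210), 23.9 CPM in G-HD (11.5 to 43.9) and 59.9 CPM in PBS (39.5 to 87.2). These levels come from 58 UMIs in 15 of 33 cells in MPG-HD, 10 UMIs in 3 of 43 cells in G-HD and 27 UMIs in 11 of 37 cells in PBS. The ratio was 2.71 (1.69 to 4.45) for MPG-HD over PBS, 0.399 (0.172 to 0.850) for G-HD over PBS and 6.80 (3.44 to 14.9) for MPG-HD over G-HD, and leaving out the cell with the most Tfrc in each library gave 3.30, 0.224 and 14.7. Red cell genes in this cluster also differed between libraries: 7 erythroid genes summed to 1595 CPM in MPG-HD, 10154 CPM in G-HD and 17631 CPM in PBS, and 1, 1 and 2 cells had at least 5% haemoglobin UMIs. Their part in the Tfrc difference was not tested.

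In macrophage-like cells Tfrc was at 12.8 CPM in MPG-HD, 20.1 CPM in G-HD and 19.99 CPM in PBS, which gave ratios of 0.642 (0.481 to 0.854) for MPG-HD over PBS and 0.638 (0.497 to 0.813) for MPG-HD over G-HD. One G-HD cell held 43 of the 247 UMIs, and without the top cells of cluster 1 the MPG-HD over G-HD ratio there was 0.745 instead of 0.646. After thinning to 1000 UMIs both class ratios reversed, to 2.76 and 1.31. With so few UMIs left by thinning, no direction was drawn for Tfrc in macrophage-like cells.

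Slc11a1 lay almost wholly in phagocytes, and the ranges of monocyte-like, macrophage-like, microglia-like and neutrophil-like cells overlapped. Macrophage-like cells had 34.6 CPM in MPG-HD, 46.7 CPM in G-HD and 38.5 CPM in PBS, microglia-like cells had 27.1, 41.0 and 23.2 CPM, and T-like cells had 0 UMIs in each library. In microglia-like cells the G-HD level was above both others, with 140 UMIs in 88 of 290 cells against 74 UMIs in 56 of 264 PBS cells and 133 UMIs in 96 of 382 MPG-HD cells. The ratio of G-HD over PBS was 1.77 (1.33 to 2.38), and it stayed between 1.69 and 2.28 under the other settings tried. The ratio of MPG-HD over G-HD was 0.662 (0.518 to 0.845), and 0.834 after thinning to 1000 UMIs. Macrophage markers in the same cells summed to 7327 CPM in MPG-HD, 9810 CPM in G-HD and 8280 CPM in PBS for 9 genes (7, 8 and 8 of them detected), and their part in the difference was not tested. In macrophage-like cells the ratio of G-HD over PBS was 1.21 (1.03 to 1.43).

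No export of iron through ferroportin could be followed, since Slc40a1, which macrophages are known to express, had 0 UMIs among 23988263 in MPG-HD, 26289759 in G-HD and 16081082 in PBS. A count of 0 allows up to 0.125, 0.114 and 0.187 CPM of counted UMIs in these libraries. Whether the gene annotation behind the feature table captures Slc40a1 reads was not tested, so this bound does not limit the expression of the gene. Among the other genes of export and oxidation, the ferroxidase gene Heph was at 21.2 CPM in macrophage-like cells in MPG-HD, 15.5 CPM in G-HD and 15.8 CPM in PBS.

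Haem oxygenase 1 marked both phagocyte classes and differed little between treatments in them. Hmox1 was at 583 CPM in MPG-HD, 493 CPM in G-HD and 556 CPM in PBS in microglia-like cells, and at 570, 524 and 486 CPM in macrophage-like cells, so the ranges of both classes overlapped. In T-like cells it was at 5.11, 15.7 and 5.04 CPM. The ratios in macrophage-like cells were 1.17 (1.12 to 1.23) for MPG-HD over PBS and 1.08 (1.03 to 1.13) for G-HD over PBS, and those in microglia-like cells were 1.05 (0.988 to 1.11) and 0.885 (0.828 to 0.947). Hmox1 RNA was uneven from cell to cell: 1 PBS microglia-like cell held 185 of 1778 UMIs, and 94 of 452 macrophage-like cells in MPG-HD, 128 of 707 in G-HD and 40 of 343 in PBS had 15 or more UMIs. Those cells held 2124 of 4134, 3323 of 6432 and 1066 of 2652 UMIs.

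In fibroblast-like cells Hmox1 was higher with both hydrogels, at 119 CPM in MPG-HD, 96.0 CPM in G-HD and 23.9 CPM in PBS. The ratio was 4.98 (3.62 to 6.99) for MPG-HD over PBS and 4.01 (2.92 to 5.64) for G-HD over PBS, and with every cluster given the same weight the G-HD over PBS ratio was 2.10. Few cells held much of it. In MPG-HD 4 of 168 cells held 174 of 275 UMIs (81, 36, 30 and 27), in G-HD 4 of 236 held 108 of 264 (52, 22, 19 and 15), and in PBS no cell of 137 had more than 4. Outside the cells with 15 or more UMIs, a limit chosen after the values were seen, Hmox1 was at 45.7 CPM in MPG-HD, 58.8 CPM in G-HD and 23.9 CPM in PBS. The 4 high cells also held more macrophage marker RNA, at 2247 CPM in MPG-HD against 472 CPM in the other fibroblast-like cells, and 6558 CPM in G-HD against 477 CPM, while their fibroblast markers were at 12336 CPM against 21709 CPM and 24812 CPM against 21424 CPM. The PBS level of macrophage markers in this class was 220 CPM. The part of macrophage RNA in the difference was not tested.

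By cluster, Hmox1 in MPG-HD exceeded PBS in all 3 fibroblast-like clusters. It was at 101 against 51.1 CPM in cluster 7, 134 against 16.1 CPM in cluster 12 and 112 against 10.8 CPM in cluster 17. These MPG-HD levels include the 4 cells that held 174 of the 275 UMIs of the class, and cluster levels without them are not given here. In G-HD Hmox1 was at 121 CPM in cluster 7, 26.9 CPM in cluster 12 and 15.5 CPM in cluster 17. The ratio of G-HD over PBS in cluster 12 was 1.67 with an interval that included 1 (0.746 to 3.71). In Schwann-like cells Hmox1 was at low levels of 7.96 to 19.6 CPM over the libraries, lowest in PBS. These levels rest on few UMIs, fewest in PBS. The ratios over PBS there were 2.09 for MPG-HD and 2.46 for G-HD, and the counting intervals of both included 1. They were at least 1.94 and 2.24 under the other settings, which draw on largely the same UMIs. No direction was drawn for Hmox1 in this class.

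Blvrb was highest in macrophage-like cells and alike in all libraries, at 115 CPM in MPG-HD, 112 CPM in G-HD and 106 CPM in PBS, a range that overlapped no other class. The MPG-HD over PBS ratio was 1.09 (0.978 to 1.21) and the G-HD over PBS ratio 1.05 (0.955 to 1.16). The related gene Blvra, which encodes biliverdin reductase A and belongs to the wider list of haem breakdown partners, differed there: it was at 154 CPM in MPG-HD, 217 CPM in G-HD and 126 CPM in PBS, with a ratio of 1.72 (1.58 to 1.87) for G-HD over PBS and 1.21 (1.10 to 1.34) for MPG-HD over PBS. Hmox2, the constitutive haem oxygenase, was at 32.7, 33.2 and 30.6 CPM.

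Blvrb also reached high levels in the haemoglobin-rich cells of 1 cluster. In the cycling cluster 10, which was left without a cell type, 2 of 70 MPG-HD cells, 7 of 98 G-HD cells and no PBS cell of 39 had at least 5% haemoglobin UMIs, a limit chosen after the values were seen. These cells had Blvrb at 398 CPM in MPG-HD (11 UMIs) and 1011 CPM in G-HD (90 UMIs), against 58.0 and 85.7 CPM in the other cells of the cluster. Tfrc was at 109 CPM in MPG-HD (3 UMIs) and 292 CPM in G-HD (26 UMIs), against 5.58 and 7.85 CPM. Alas2, the red cell enzyme that starts haem synthesis, had 30 UMIs in the 2 MPG-HD cells and 89 in the 7 G-HD cells and 0 in the other cells of the cluster. Hmox1 had 0 UMIs in those MPG-HD cells and 1 in those G-HD cells. The endothelial-like cluster 16 held haemoglobin-rich cells too, in which Blvrb had 1 UMI in the 1 MPG-HD cell, 0 in the 1 G-HD cell and 0 in the 2 PBS cells, and Tfrc had 0 UMIs in all of them, while Alas2 had 0, 8 and 12. The 9 cells of cluster 10 add to the Blvrb level of the whole cluster, which was 68.2 CPM in MPG-HD, 141 CPM in G-HD and 45.3 CPM in PBS.

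Ceruloplasmin RNA was found chiefly in fibroblast-like, endothelial-like and ependymal-like cells. Fibroblast-like cells had Cp at 147 CPM in MPG-HD, 288 CPM in G-HD and 94.1 CPM in PBS, and endothelial-like cells at 162, 127 and 233 CPM. Ependymal-like cells, only 9, 11 and 2 in number, had 140, 177 and 483 CPM from 7, 19 and 10 UMIs. The ratio in fibroblast-like cells was 3.06 (2.60 to 3.62) for G-HD over PBS, 1.56 (1.30 to 1.88) for MPG-HD over PBS and 0.510 (0.447 to 0.579) for MPG-HD over G-HD.

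The makeup of the class differed between libraries as well. Cp was almost limited to cluster 7, led by Igf2 and A2m, where it was at 423 CPM in MPG-HD, 380 CPM in G-HD and 342 CPM in PBS, while cluster 12 had 9.02, 21.1 and 8.6 CPM. Cluster 7 held 60 of 168 fibroblast-like cells in MPG-HD, 174 of 236 in G-HD and 49 of 137 in PBS, so most of the class lay in cluster 7 in G-HD, and cluster 12 was the larger in MPG-HD and PBS. With every cluster given the same weight, the Cp ratios were 1.25 for G-HD over PBS, 1.26 for MPG-HD over PBS and 1.01 for MPG-HD over G-HD. The Fth1 class ratio of 1.73 for G-HD over PBS (1.70 to 1.77) became 1.09 with that weighting. It counts cluster 17, with 13 G-HD cells, as much as the larger clusters. Within cluster 7 Fth1 was still higher with both hydrogels, at 13173 CPM in MPG-HD, 12831 CPM in G-HD and 9833 CPM in PBS. Cluster 12 had 4229, 4387 and 4393 CPM. The part of the class makeup in the Cp and Fth1 ratios was not tested. Cells with more Fth1 tended to have more Cp within the class (Spearman rho 0.61 in MPG-HD, 0.52 in G-HD and 0.48 in PBS over cells of 1 library each, as shares of the cell's UMIs). The correlation within clusters was not tested.

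**Figure D4:**
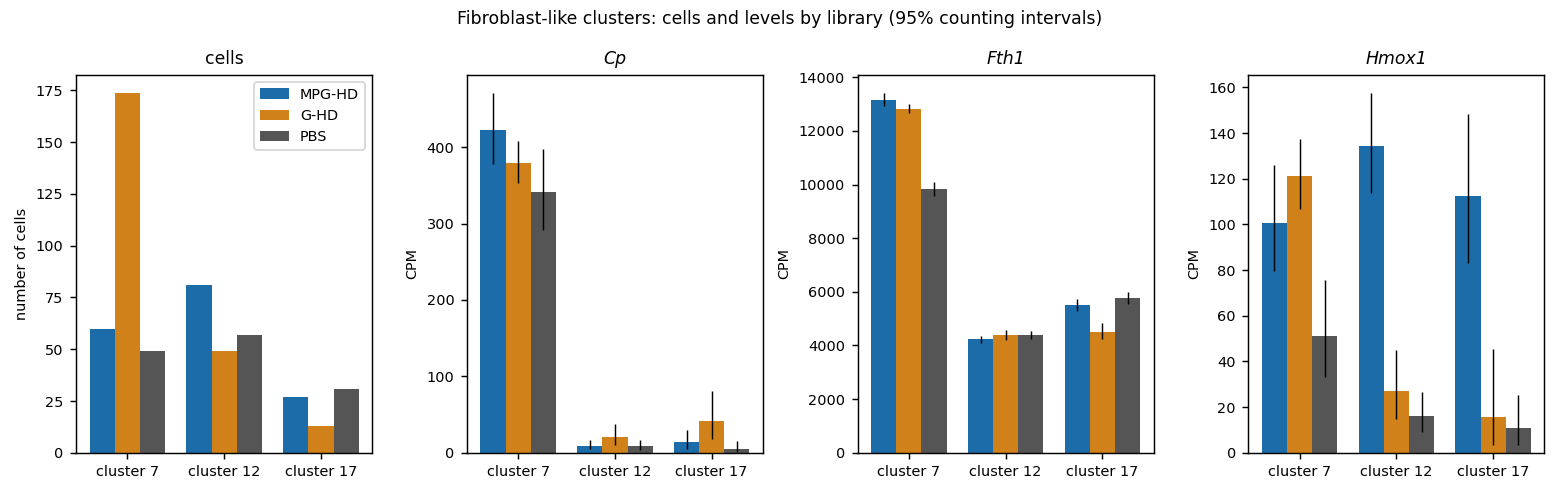
Number of cells and level of Cp, Fth1 and Hmox1 (CPM) in the 3 fibroblast-like clusters, with bars in the order MPG-HD, G-HD and PBS and lines for 95% counting intervals. Cp stands between 342 and 423 CPM in cluster 7 in all libraries, where G-HD has 174 cells, and Hmox1 in clusters 12 and 17 is highest in MPG-HD.

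The members were then counted over the 3 most abundant classes. For MPG-HD over PBS, 3 of 24 measured pairs of gene and class were past 1.5-fold in either direction, while 17.8% of all gene and class pairs were. For G-HD over PBS 2 of 24 were, against 19.6% of all pairs, and for MPG-HD over G-HD 4 of 24 were, against 16.8%. These shares lie near or under the background, and the count for G-HD over PBS was 7 with every cell weighing the same. Over all 6 classes of at least 50 cells per library and the 3 comparisons, 26 of 127 member ratios were past 1.5-fold, against 22.0% of all gene and class ratios. The 3 comparisons share libraries. Within the 3 most abundant classes, the pairs past 1.5-fold were Tfrc in macrophage-like cells, Slc11a1 in microglia-like cells and further pairs of Cp and Slc11a1. Those further pairs had 3 to 74 UMIs in a library. In fibroblast-like cells 4 of 7 measured members were past 1.5-fold for G-HD over PBS, all higher, against 28.5% of all genes tested past it in either direction and 15.8% higher. With every cluster weighing the same, 1 of those 7 was past it, Hmox1 (2.10), with Fth1 at 1.09, Cp at 1.25 and Tfrc at 0.861. For MPG-HD over PBS 3 of 7 were, 2 of them higher, against 21.6% of all genes in either direction and 7.92% higher. With 7 members measured, each of these shares rests on the genes named above, and in Tfrc on 4 UMIs in MPG-HD, 19 in G-HD and 6 in PBS. The median log2 ratio of the members in fibroblast-like cells was 0.79 for G-HD over PBS and 0.27 for MPG-HD over PBS, where all genes had 0.04 and -0.07.

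**Figure D5:**
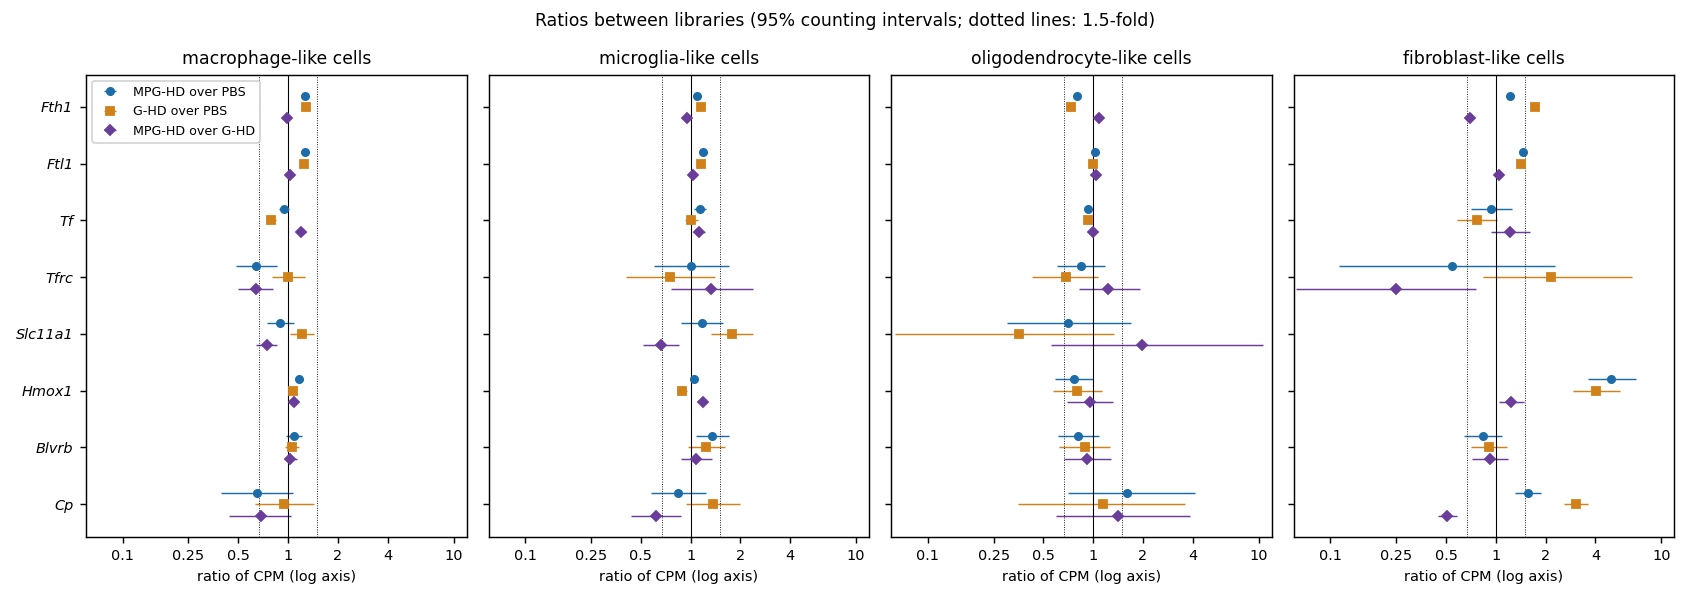
Ratio of levels (log axis) for each measured gene in 4 classes, with circles for MPG-HD over PBS, squares for G-HD over PBS, diamonds for MPG-HD over G-HD, bars for 95% counting intervals and dotted lines at 1.5-fold. In macrophage-like cells the ferritin ratios over PBS lie between 1.24 and 1.29, and the ratios farthest from 1 are those of Hmox1 over PBS in fibroblast-like cells, at 4.98 and 4.01.

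Wider lists of iron genes gave a similar picture in macrophage-like cells. Of 14 measured targets of the stress regulators Nrf2 and Bach1, 3 were past 1.5-fold higher for G-HD over PBS and none lower, with a median log2 ratio of 0.09 (0.00 over all genes), while 20.4% of all genes in this class were past that fold and 9.44% were higher. Gclm, a subunit of the enzyme that starts glutathione synthesis, was at 10.2 CPM in MPG-HD, 11.2 CPM in G-HD and 6.42 CPM in PBS. Prdx1, a peroxidase and the most abundant of the list, was at 1205, 1230 and 1145 CPM. For MPG-HD over PBS 2 of the 14 were higher, Gclm and Slc7a11, and none was lower, against 17.6% of all genes past that fold and 7.27% higher. Slc7a11, the cystine importer, had only 15 UMIs in MPG-HD, 11 in G-HD and 1 in PBS.

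Of 10 measured genes of iron sensing and ferritin turnover, none was past 1.5-fold in macrophage-like cells for either hydrogel over PBS, and the same held for 11 of iron-sulfur cluster assembly in G-HD over PBS. In MPG-HD over PBS 1 of those 11 was lower. Bola2, a chaperone of cytosolic iron, was at 636, 577 and 634 CPM and Iscu, the scaffold on which clusters are built, at 252, 203 and 223 CPM in MPG-HD, G-HD and PBS. Of 7 measured genes of haem and haemoglobin uptake, 1 was higher and 1 lower for G-HD over PBS. The higher one was Hp, the haemoglobin binder haptoglobin, at 12.4 CPM in MPG-HD, 23.2 CPM in G-HD and 9.35 CPM in PBS, with a ratio of 2.48 (1.84 to 3.41) for G-HD over PBS. Hp was also among the genes leading neutrophil-like cluster 18, which was mostly G-HD, and the part of neutrophil RNA in its level was not tested. In the remaining lists, for G-HD over PBS, 1 of 7 measured genes of iron import and reduction was higher and 2 were lower, 1 of 3 of iron export and oxidation was lower, 1 of 10 of haem synthesis was higher, 1 of 4 haem breakdown partners (Blvra) was higher and 1 of 8 ferroptosis guards was lower.

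Over the 18 sums of 6 classes and 3 libraries, the genes most like each member by Pearson's r of log2 levels among 4795 genes followed the same classes, and the points share libraries and clusters, so r is a description. Atp6v0c, a subunit of the proton pump of lysosomes, was closest to Fth1 (r 0.98) and, after Fth1, to Ftl1 (r 0.96). Hmox1 was closest to the lysosomal genes Ctsb (r 0.98) and Npc2 (r 0.97), and Slc11a1 to Siglec1 (r 0.98) and Slamf9 (r 0.98). Cp was closest to P3h3 (r 0.97) and Emilin1 (r 0.96), Tf to Sema4d (r 0.95) and Sec11c (r 0.95), Blvrb to Gsto1 (r 0.95) and Rab1a (r 0.91), and Tfrc, the scarcest, to Cnppd1 (r 0.87) and Oser1 (r 0.79). Cell by cell, Fth1 and Ftl1 shares went together in macrophage-like cells (Spearman rho 0.89 in MPG-HD, 0.86 in G-HD and 0.86 in PBS) and less so in oligodendrocyte-like cells (0.03, 0.05 and 0.32). The oligodendrocyte-like class pools clusters of unlike chain balance, and the correlation within clusters was not tested.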

How the data were processed

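Spinal cord cells of 3 treatments were profiled with a 10x Genomics 3′ kit, 1 library each. The deposited matrices hold raw, unscaled UMI counts, per the file headers. Cell Ranger appears as 3.0.2 in the submitters' processing notes and as 3.1.0 in the matrix header. Those notes list only mouse builds (mm10, GRCm38) although every one of the 25199 features has a rat Ensembl identifier, and no rat build is stated.

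The filter kept 5815 cells, each with 200 genes or more and a mitochondrial share up to 20%, and 14 called doublets (Scrublet in Scanpy 1.11.5, expected rate 6%) were removed; with so few calls the caller was treated as not having worked, and doublets may remain. Clustering used 2000 variable genes without the members and the wider iron lists, 30 components, 20 neighbours and the Leiden method at resolution 0.8. Clusters were named from at least 3 markers, each found in at least 20% of the cells. A class's counts were summed per library and scaled to CPM. Ratios have exact conditional 95% intervals and shares of cells exact (Clopper-Pearson) ones. Genes counted as measured had 10 or more UMIs over the 2 sums, in classes of at least 50 cells per library, and past 1.5-fold was counted. With 1 library per group no test was made. The ratio script was checked on simulated counts with counting error only. That check does not cover UMIs gathered in single cells or differences between animals and preparations.

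All 9 members are named, the 3 genes of each wider list with most UMIs were eligible as examples, and the 2 genes most like each member by Pearson's r of log2(CPM + 5) are given; Blvra, Hp and Prdx1 come under that rule, while Gclm, Slc7a11, Alas2 and Ltf were chosen after their values were seen. The members and lists were chosen with earlier results of these data known. Of the lists, Cd36, Pcbp1, Ugt1a1 and Srxn1 did not match a symbol.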

Additional observations from a re-analysis of the deposited data

How the results depend on the processing

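No paired analysis was possible because each group has 1 library. Of the 26 member ratios past 1.5-fold, 16 stayed past it under every alternative that gave a value. Reversed values were Tfrc in macrophage-like cells after thinning to 1000 UMIs (2.76 for MPG-HD over PBS and 1.31 for MPG-HD over G-HD) and, with every cluster weighing the same, Tfrc in fibroblast-like cells for G-HD over PBS (0.861), Cp in oligodendrocyte-like cells for MPG-HD over PBS (0.902) and Cp in fibroblast-like cells for MPG-HD over G-HD (1.01). The 2 pairs past 1.5-fold for G-HD over PBS became 4 at resolution 1.2, 7 with every cell weighing the same, 5 with every cluster weighing the same, 5 after thinning, 1 with at least 50 UMIs and 1 at 2-fold. At 2-fold, 0 of the 3 pairs for MPG-HD over PBS and 0 of the 4 for MPG-HD over G-HD remained, and the other alternatives kept those counts within 1.5 times. Depth limits Tfrc, Slc11a1 and Cp outside their main classes, where most sums are under 50 UMIs.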
